A study of Mus musculus with 120 samples.

Results

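The mir-465 family is a set of mouse microRNA genes on the X chromosome. Its members were taken as every row of the microRNA class whose name starts with Mir465, which gave 6 of the 1123 microRNA rows in each table of reads per feature: Mir465, Mir465b-1, Mir465b-2, Mir465c-1, Mir465c-2 and Mir465d. In the tables of base substitutions made after 4-thiouracil (4-TU) labelling, 5 of 394 listed microRNA arms belonged to the family. Mir465 is the gene that RefSeq also names mir-465a. Each row counts the reads of a whole hairpin, without separating its arms.

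The study asked which small RNAs sperm carry from the testis and which they gain in the epididymis, the duct in which they mature (caput first, cauda last). RNA under 40 nt was sequenced from mice fed control diet and sampled at 8 to 12 weeks of age, in 114 libraries of reads per feature and 6 of the labelling experiment. All animals shared that diet, and the strain is named only in the titles of the washed sperm, which read FVBTA in set 1 and FVBCDIET in sets 2 to 5. Whether libraries of a group come from different animals is not stated, so a p-value reflects only the spread among these libraries, which may be technical.

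The groups were as follows. Cauda sperm were unwashed or given a low (0.01% SDS, 0.005% Triton-X), mid (0.1% SDS, 0.005% Triton-X) or high (0.1% SDS, 0.5% Triton-X) detergent wash, in 5 sets. In set 4 the high wash library carries that wash in its label but the word mid in its title, and it was grouped by the label. Sperm taken whole or split into heads and tails were of testicular origin (2, 3 and 2 libraries, with the low detergent wash) or of cauda origin (6, 3 and 4 libraries, with that wash or a hypotonic one). Testis and cauda epididymis tissue RNA was left untreated or treated with polynucleotide kinase, with a kinase labelled 3 minus, with AlkB or with RppH, each in 2 libraries labelled acid and 2 labelled base. Polynucleotide kinase repairs the phosphates at RNA ends, AlkB removes some base methylations, and RppH trims caps and triphosphates. Caput and cauda sperm RNA was left untreated or treated with kinase (3 libraries each). A maturation series held 1 library each of primary spermatocytes, early round spermatids, late round spermatids and caput sperm, 4 of testicular sperm, 7 of cauda sperm and 3 of cauda epididymosomes, the vesicles of the epididymal fluid. Of the 7 cauda titles, 6 give an age of 12 or 9 weeks, with the same 3 numbers at each age, and the 4 testicular sperm titles carry different marks (NaCl and somatic among them), which are not interpreted here. Testicular sperm incubated with caput epididymosomes (fusion) and mock-incubated sperm had 2 libraries each.

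MicroRNAs are cut from hairpin precursors by Drosha and Dicer, and 1 strand is loaded on an Argonaute protein, where the bases near its 5′ end (the seed) pair with target messenger RNAs. Mir465 lies in a cluster of X-linked microRNA genes between Slitrk2 and Fmr1 that is known for preferential expression in the testis. Most X-linked genes are silenced in pachytene spermatocytes by meiotic sex chromosome inactivation, and microRNAs of this cluster have been described as being present at those stages.

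The hairpins lie on the minus strand of chromosome X (GRCm38). In order along the chromosome they are Mir465d (chrX:66822656-66822713), Mir465c-1 (chrX:66825955-66826035), Mir465b-1 (chrX:66829202-66829280), Mir465c-2 (chrX:66832517-66832597), Mir465b-2 (chrX:66835764-66835842) and Mir465 (chrX:66839052-66839125). The 6 hairpins span 16470 bp with gaps of 3166 to 3241 bp between neighbours. The hairpins of Mir465b-1 and Mir465b-2 were identical, and so were those of Mir465c-1 and Mir465c-2.

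The mature sequences are printed because they show which rows the reads can tell apart. They are given 5′ to 3′ as RefSeq (GRCm38.p6) annotates them, with bases 2 to 8, the seed, in capitals. The 5′ arms of all members share 1 seed:
miR-465a-5p: uAUUUAGAauggcacugauguga
miR-465b-5p: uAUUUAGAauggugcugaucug
miR-465c-5p: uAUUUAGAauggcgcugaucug
miR-465d-5p: uAUUUAGAaugguacugauguga
The 3′ arms of the a, b and c members are the same molecule, and that of the d member starts 1 base earlier and so has another seed:
miR-465a-3p, miR-465b-3p and miR-465c-3p: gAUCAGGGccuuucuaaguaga
miR-465d-3p: uGAUCAGGgccuuucugaguaa

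Counting positions from 1 at the 5′ end, the 5′ arm of the c member differs from that of b by C13U, from that of a by G14A and C20G, and from that of d by C13U, G14A and C20G. All of these lie outside the seed. None of the mature sequences outside the family in the RefSeq table of 1674 had any of these 3 seeds. Reads of the 3′ arm cannot be assigned among the a, b and c rows by sequence, and no read of a mature arm can separate b-1 from b-2 or c-1 from c-2.

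The rows of identical hairpins had near-equal counts. Ratios were taken over libraries with at least 100 reads in the second row of the pair (c-2 or b-2). The ratio of c-1 to c-2 reads ran from 0.790 to 1.15 (median 0.996, 91 libraries), and that of b-1 to b-2 from 0.850 to 1.10 (median 0.999, 90 libraries). The c pair lay within 2 Poisson SD in 86 of 114 libraries and the b pair in 100. Each pair is therefore described as 1 signal split over 2 rows, and the rows of a pair are not separate evidence. Mir465d had 0 to 15 reads, was seen in 62 of 114 libraries and passed the filter on low counts in no comparison as fitted here without a block, so at most 5 members were tested anywhere.

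The c rows held most of the family's reads. They exceeded the b rows in 101 of 114 libraries, and the b rows exceeded Mir465 in all 114. In untreated testis tissue, values for the 4 libraries are given as the 2 acid ones and then the 2 base ones throughout. Mir465c-2 stood there at 322, 445, 467 and 467 counts per 1000000 reads (CPM), and Mir465b-1 at 253, 312, 339 and 297 CPM. Mir465 stood lower, at 109, 147, 117 and 160 CPM. The order of the rows was thus the same in all 4 libraries. CPM here are scaled to the library total without the 28S, 18S and 5.8S ribosomal rows, whose reads are also in the 45S row.

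Family levels, the sum of the 6 rows, ran from 24.2 to 4871 CPM across the 114 libraries (13 to 71792 reads), and from 0.00394% to 5.25% of microRNA reads. Library depth ran from 156347 to 56011124 reads, and microRNAs made up 0.501% to 94.3% of them, so CPM and share of microRNA reads often ranked libraries differently. Groups were ordered by mean CPM from mock-fused sperm (3495 CPM) down to kinase 3 minus cauda epididymis tissue (48.9 CPM). The ranges of neighbours in that order overlapped in 30 of 32 pairs. By share of microRNA reads, cauda sperm heads came highest (3.51%) and AlkB-treated cauda epididymis tissue lowest (0.0105%), with overlap in 28 of 32 pairs. In that order there was no overlap between kinase-treated cauda sperm (lowest 0.428%) and the next group, the cauda epididymosomes (highest 0.307%), or between these (lowest 0.245%) and kinase 3 minus testis tissue (highest 0.243%). Below that, untreated cauda epididymis tissue (highest 0.0733%) and all groups that ranked under it held at most 0.0733%.

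**Figure D1:**
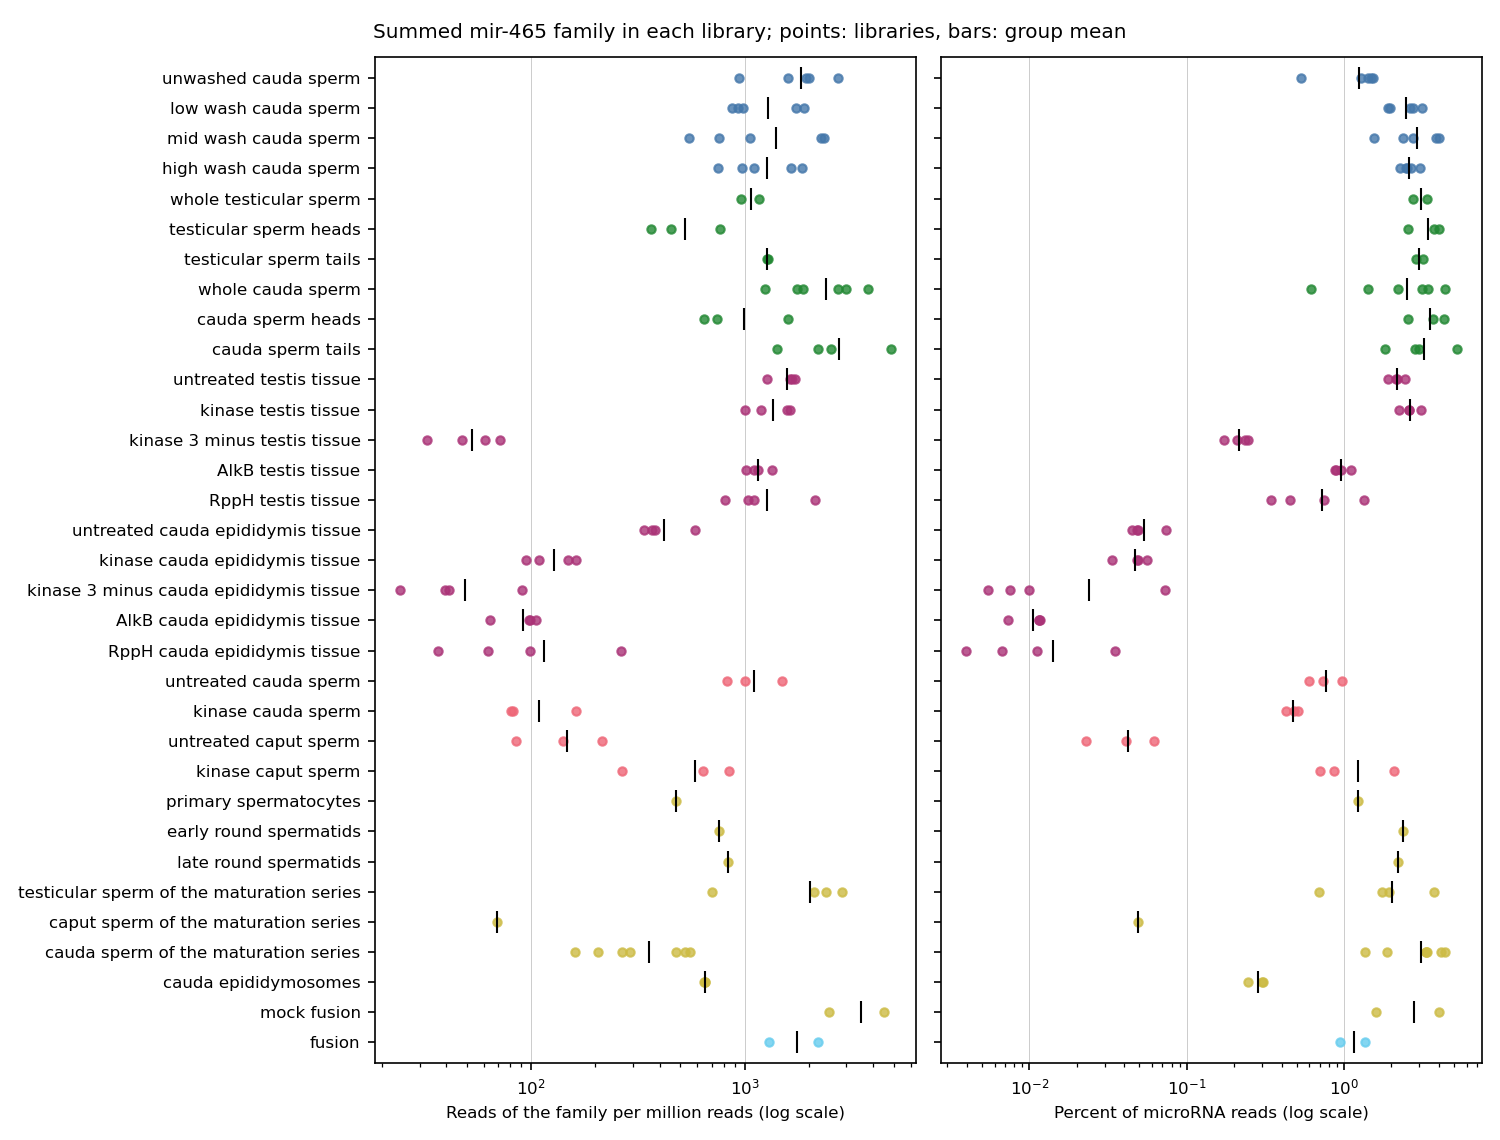
Summed mir-465 reads in each of the 114 libraries, in CPM (left) and as percent of microRNA reads (right), both on log axes. Points are libraries, bars are group means and colours mark the deposited table. Caput sperm and cauda epididymis tissue sit lowest on the right, with kinase-treated caput sperm (0.703% to 2.09%) apart from untreated caput sperm (0.0230% to 0.0617%).

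Testis tissue held more mir-465 than cauda epididymis tissue in every untreated library. The family stood at 1278, 1635, 1715 and 1670 CPM in testis (1574 ± 200.4, SD, n = 4) and at 380, 340, 370 and 588 CPM in cauda epididymis (420 ± 114, SD, n = 4). The ranges did not overlap. As a share of microRNA reads the gap was wider, 1.90% to 2.43% against 0.0449% to 0.0733%, since microRNAs were 6.72% to 7.66% of testis reads and 70.7% to 84.8% of epididymis reads.

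All 5 tested members were higher in testis, by 2.14 (SE 0.20) for Mir465 to 2.27 (SE 0.23) for Mir465c-2 on the log2 scale (edgeR quasi-likelihood test, Benjamini-Hochberg adjusted p 2.72e-08 to 9.93e-08). Of all rows tested in that comparison, 50.4% were called higher, so the count of members is not unusual by itself. The tested rows had a median shift of 0.62 log2 units toward testis, and every member lay above it. Markers of meiotic and later germ cells (Mir34b, Mir34c, Mir449a) summed to 13.5% to 15.1% of microRNA reads in testis and 0.153% to 0.193% in cauda epididymis, with 0 of the 3 at 0 in either. Epithelial markers (the 5 mir-200 family genes) ran the other way, at 0.0550% to 0.210% and 2.30% to 3.19%. In tissue, fewer cells of a type and less RNA per cell cannot be told apart.

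Other X-linked microRNAs of the interval moved with the family. Of the 16 on the list, 15 passed the filter and all 15 were higher in testis, with a median log2 difference of 2.98 against 0.62 for all rows. The 4 most abundant were Mir470 (2881 ± 157 CPM in testis against 170 in cauda epididymis), Mir881 (2034 ± 171 against 310), Mir871 (1853 ± 278 against 154) and Mir878 (353 ± 24.2 against 72.3), all with n = 4. The log2 difference of Mir470 was 4.35 (SE 0.27) and that of Mir871 was 3.87 (SE 0.26), so both exceeded every mir-465 row in size. That of Mir878 was 2.56 (SE 0.22), near those of the family.

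Germ cells of the testis already held the family. Primary spermatocytes had 479 CPM (1.23% of microRNA reads), early round spermatids 759 CPM (2.37%) and late round spermatids 833 CPM (2.21%). With 1 library per stage there is no test, and the values describe these libraries. The germ-cell markers held 45.7% to 55.5% of microRNA reads in the same libraries. Their Mir465 share of family reads was 9.90% to 10.7%.

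In the maturation series, testicular sperm held more mir-465 in CPM than cauda sperm. The 4 testicular libraries had 2119, 2408, 2861 and 700.5 CPM (2022 ± 933, SD, n = 4), the last of them from the library whose title is marked somatic, and the 7 cauda libraries had a lowest value of 161, a median of 291 and a highest of 558 CPM (355 ± 162, SD, n = 7). No cauda library reached the lowest testicular one. All 5 members were lower in cauda sperm, by log2 changes such as -2.27 (SE 0.37) for Mir465, -2.10 (SE 0.35) for Mir465b-1 and -2.02 (SE 0.37) for Mir465c-1 (edgeR, adjusted p 1.54e-05 to 8.24e-05), where 37.0% of all rows were called lower. Of the X-linked list, 15 of 15 tested were lower too, with a median of -2.11.

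The share of microRNA reads gave another picture. It was 0.691% to 3.74% in testicular and 1.35% to 4.37% in cauda sperm, so the ranges overlapped. MicroRNAs were 4.04% to 30.7% of reads in testicular and 0.501% to 2.56% in cauda sperm, and 0 of 5 members passed when the fit used microRNA rows alone. Markers of blood (Mir451a, Mir486, Mir144, Mir142, Mir223) held 7.97% to 33.6% of microRNA reads in the 4 testicular libraries and 0.282% to 0.872% in the cauda ones. Their part in the result was not tested. Restricting the fit to the title date that 6 of the 7 cauda libraries carry, or adding the title date as a term, left the count at 5.

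Caput sperm of the series had 69.1 CPM, or 0.0491% of microRNA reads, in its 1 library of 925 family reads. That was below all 4 testicular and all 7 cauda libraries on both scales. In the same library the germ-cell markers were 0.191% and the epithelial ones 4.40% of microRNA reads, and the epididymal epithelium messenger RNAs (Gpx5, Lcn8, Cd52, Crisp1) summed to 970.2 CPM, against 33.9 to 472 CPM in cauda sperm. Their part in the low value was not tested.

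The separate caput and cauda sperm libraries, made without kinase, showed the same order. Untreated caput sperm had 215, 141 and 85.1 CPM, from only 147, 22 and 65 reads, and untreated cauda sperm had 828.9, 1001 and 1498 CPM. The groups did not overlap. All 5 members were higher in cauda, by 2.85 (SE 0.40) for Mir465 to 3.85 (SE 0.40) for Mir465b-1 (edgeR, adjusted p 3.23e-06 to 4.79e-05), where 21.9% of all rows were called higher. Rows with few caput reads, such as Mir465 and Mir465b-1, passed the low-count filter through the cauda libraries, in which they were high. The count of 5 is therefore a description only. Of the X-linked list, 11 of 11 tested were higher in cauda, and so were all 3 germ-cell markers. Blood markers were higher too, in 4 of 4 tested, with a median log2 difference of 4.07 against 2.36 for the germ-cell markers. Of the 5 epithelial markers, 2 were higher and 1 was lower. As a share of microRNA reads the family was 0.0230% to 0.0617% in caput and 0.602% to 0.976% in cauda sperm.

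Cauda epididymosomes carried mir-465 at nearly the same level in all 3 libraries, with 651, 646 and 651 CPM (649 ± 2.96, SD, n = 3). Against cauda sperm of the series, 0 of 5 members passed (edgeR; 16.5% of all rows were called higher and 29.6% lower), also 0 at an unadjusted p under 0.05 and 0 by DESeq2. Every epididymosome library nevertheless lay above every cauda sperm library in CPM (161 to 558 CPM). The log2 differences ran from -0.08 (SE 0.30) for Mir465b-2 to 0.58 (SE 0.30) for Mir465. With library totals alone as the scaling, which moved the median of all rows to 0.75, 2 members, Mir465 and Mir465c-2, were called higher (20.6% of rows were). As a share of microRNA reads, however, epididymosomes held 0.245% to 0.307%, below every cauda sperm library (1.35% to 4.37%), and all 5 members were lower when microRNA rows were fitted alone, where 36.1% of rows were. MicroRNAs were 21.1% to 26.5% of epididymosome reads. The germ-cell markers were at 0.610% to 0.826% and the epithelial ones at 9.19% to 10.5% of microRNA reads there. All 3 epididymosome libraries carry 1 title date that no cauda sperm library carries, so date and group cannot be told apart.

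Against testicular sperm, all 5 members were lower in epididymosomes, by -1.69 (SE 0.51) for Mir465b-2 to -1.32 (SE 0.53) for Mir465 (edgeR, adjusted p 0.00852 to 0.0378), where 33.9% of all rows were called lower. The median of all rows was shifted by 0.40 the other way. The call depended on the number of epididymosome libraries: without replicate 1, 2 or 3 of them, 1 member passed each time. Mir465 made up 13.9% to 14.4% of family reads in epididymosomes, 11.3% to 13.3% in testicular sperm and 8.77% to 10.5% in 6 of the 7 cauda sperm libraries. In the other cauda library it was 16%, above the epididymosome range.

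**Figure D2:**
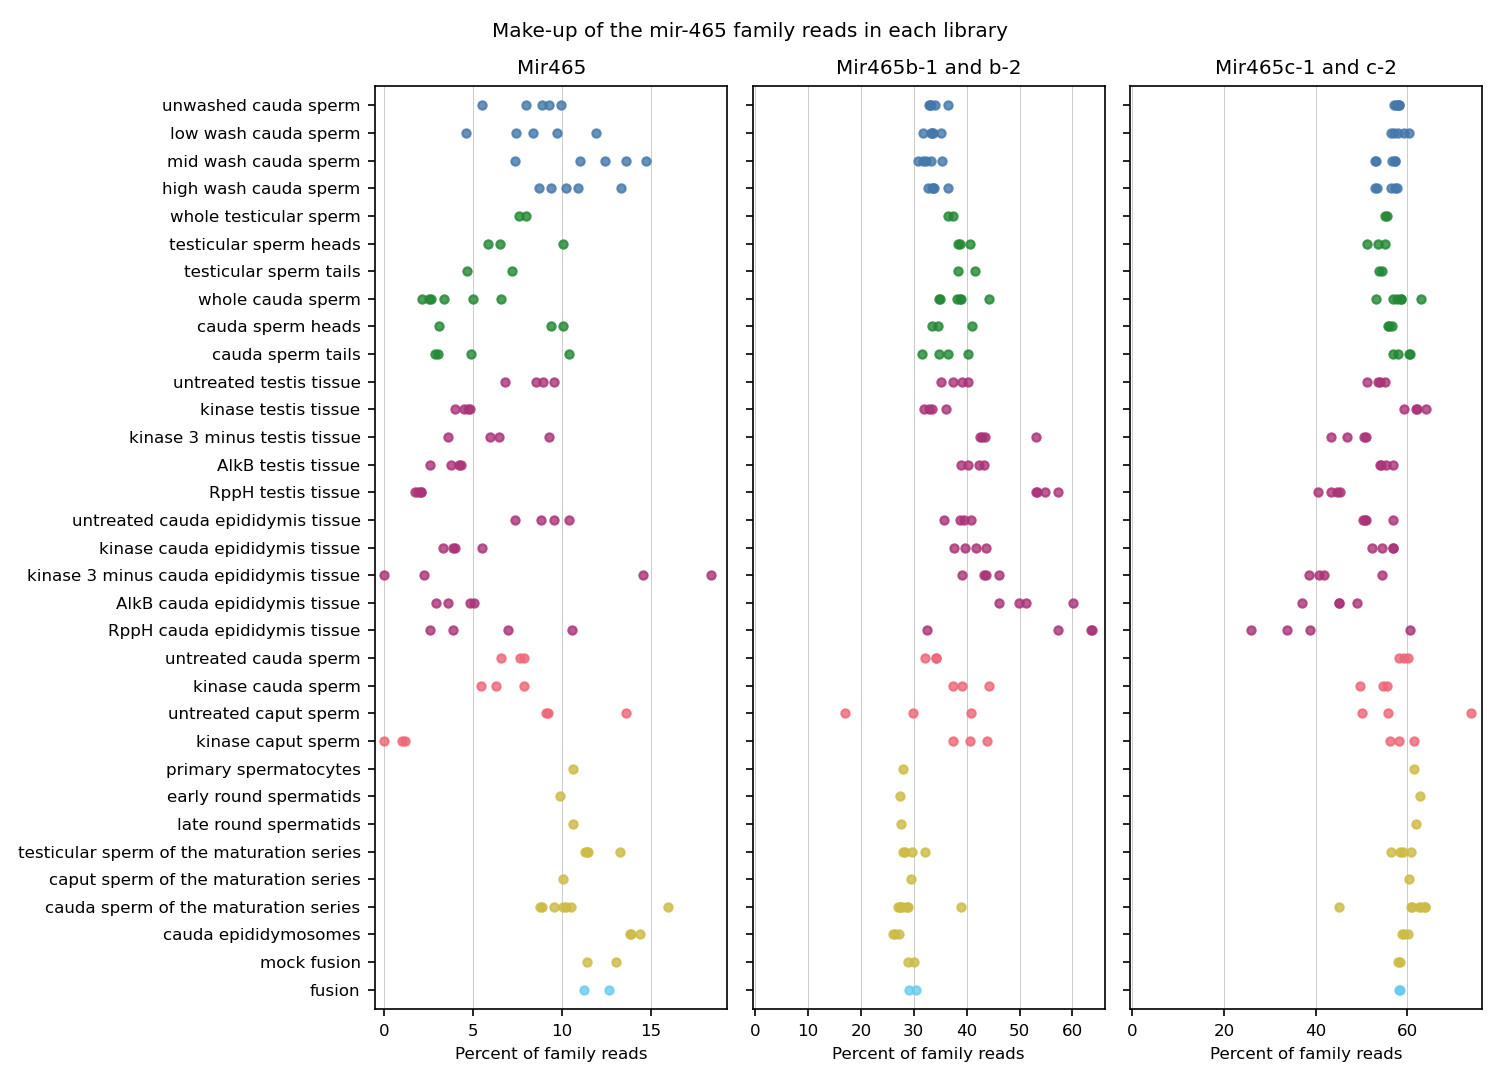
Percent of the family's reads from Mir465 (left), from Mir465b-1 and b-2 (middle) and from Mir465c-1 and c-2 (right) in each library. Colours mark the deposited table. In RppH-treated testis tissue the b rows (53.1% to 57.3%) stand above the c rows (40.6% to 45.2%), and in kinase-treated caput sperm Mir465 held 0% to 1.20%.

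Heads and tails of sperm both held the family. Testicular sperm heads had 451, 766 and 366 CPM, tails 1282 and 1272 CPM, and whole testicular sperm 961 and 1174 CPM. Every head library lay below every tail library. The log2 difference of heads against tails ran from -1.18 (SE 0.29) for Mir465b-2 to -0.87 (SE 0.33) for Mir465, and 0 of 5 passed (edgeR, adjusted p 0.102 to 0.415; 0.997% of all rows were called lower), with 5 at an unadjusted p under 0.05 and 0 by DESeq2. Without head replicate 2, 4 members passed. All 3 germ-cell markers were called lower in heads. As a share of microRNA reads heads (2.56% to 4.02%) and tails (2.85% to 3.15%) overlapped, and on microRNA rows alone the differences turned to 0.06 (SE 0.19) to 0.40 (SE 0.32).

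Cauda sperm heads had 645, 1602 and 745 CPM, the first after the detergent wash and the others after the hypotonic one. Cauda tails had 4871 CPM after the detergent wash and 2203, 1422 and 2550 CPM after the hypotonic one, and whole cauda sperm ran from 1241 to 3804 CPM (median 2311, n = 6). Heads and tails overlapped. With the wash as a term, the log2 difference of heads against tails was -0.73 (SE 0.49) for Mir465c-1 to -0.28 (SE 0.63) for Mir465, and 0 of 5 members passed (edgeR; 11.6% of all rows were called lower), also 0 at an unadjusted p under 0.05 and 0 by DESeq2. With library totals alone as the scaling, which moved the median of all rows to -0.94, 4 members were called lower (27.1% of rows were).

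From testis to cauda, whole sperm, heads and tails gave differences in 1 direction whose calls varied, and the shares of microRNA reads overlapped. The testicular libraries all had the detergent wash, whereas most cauda libraries had the hypotonic one, and no wash term was fitted. Origin and wash are therefore partly mixed in these comparisons. In heads, 4 of 5 members were higher in cauda, by 1.14 (SE 0.44) for Mir465b-1 to 1.40 (SE 0.47) for Mir465c-2 (edgeR, adjusted p 0.0203 to 0.0384), where 36.4% of all rows were called higher. Mir465 had 1.53 (SE 0.65) with an adjusted p of 0.0542. That call was lost without testicular head replicate 1, testicular head replicate 3 or hypotonic cauda head replicate 1 (0 members each), and 2 members were left without testicular head replicate 2. In whole sperm, 0 of 5 passed (21.8% of all rows were called higher), 0 at an unadjusted p under 0.05 and 4 by DESeq2, with log2 differences of 0.33 (SE 0.70) to 1.35 (SE 0.65), and 3 passed without hypotonic replicate 3. In tails, 0 of 5 passed (29.2% of all rows were called higher), 2 at an unadjusted p under 0.05 and 0 by DESeq2, with differences of 0.79 (SE 0.49) to 1.11 (SE 0.50), and 4 passed without hypotonic tail replicate 1.

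The share of microRNA reads was 2.74% to 3.38% in whole testicular and 0.613% to 4.37% in whole cauda sperm, 2.56% to 4.02% and 2.53% to 4.33% in heads, and 2.85% to 3.15% and 1.81% to 5.25% in tails. In heads 0 members passed on microRNA rows alone. Of the 15 tested members of the X-linked list, 3 were higher and 3 lower in whole cauda sperm, 7 higher and 2 lower in heads, and 4 higher and 5 lower in tails. All 5 epithelial markers were higher in cauda in each of the 3 comparisons, with median log2 differences of 6.29, 4.01 and 5.29. Their part in the family's values was not tested.

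In whole sperm, heads and tails the differences thus pointed to higher values in cauda, whereas in the maturation series the members were lower in cauda. The libraries differ in preparation, and the difference between the experiments was not tested. The germ-cell markers were 21.4% to 32.8% of microRNA reads in the testicular whole, head and tail libraries and blood markers 0.222% to 0.430%, against 1.18% to 23.8% and 7.97% to 33.6% in the testicular sperm of the series.

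Washed cauda sperm mostly held less mir-465 in CPM than the unwashed library of the same set, and a larger share of microRNA reads. Unwashed sperm of sets 1 to 5 had 942, 1595, 1942, 1993 and 2754 CPM, and the same sets had 935, 873, 979, 1738 and 1897 CPM after the low wash. After the mid wash they had 756, 1062, 547, 2366 and 2277 CPM, and after the high wash 1103, 975, 748, 1650 and 1858 CPM. The level was below that of the unwashed library in 5 of 5, 4 of 5 and 4 of 5 sets. The median ratios to the unwashed library were 0.689, 0.803 and 0.675.

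Without regard to sets, 0 of 5 members passed at any wash, at an unadjusted p under 0.05 too (edgeR). DESeq2 gave 0 adjusted calls at each wash, and 1 member at an unadjusted p under 0.05 at the high wash. The log2 changes ran from -0.88 (SE 0.47) to -0.32 (SE 0.56), and 0.241%, 2.17% and 1.25% of all rows were called lower after the low, mid and high wash. Libraries of a set deviated together, and with the set as a block 5, 4 and 3 of 5 members were called lower, where 4.02%, 6.42% and 3.14% of all rows were. With that block Mir465b-2 changed by -0.47 (SE 0.12), -1.02 (SE 0.23) and -0.88 (SE 0.25), with adjusted p of 0.00885, 0.00767 and 0.0385 (edgeR). With library totals alone as the scaling, which moved the median of all rows to 0.46 at the mid wash and 0.44 at the high wash, Mir465 had 0.04 (SE 0.41) at the mid wash.

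Relative to other microRNAs the direction turned. The family was 0.529% to 1.52% of microRNA reads in unwashed sperm, 1.90% to 3.14% after the low, 1.56% to 4.03% after the mid and 2.27% to 3.04% after the high wash. It was higher in 5 of 5 sets at every wash, with median ratios of 1.84, 2.54 and 1.92. MicroRNAs fell from 12.4% to 18.5% of reads in unwashed sperm to between 2.31% and 7.44% after washing. On microRNA rows alone, 0, 4 and 3 members were called higher (where 17.6%, 27.7% and 20% of rows were), and with the block added to that fit, a choice made after seeing the data, 3, 5 and 3 (25.8%, 34.8% and 27.5% of rows).

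Epithelial markers were 3.19% to 6.17% of microRNA reads in unwashed and 1.09% to 2.18% in high-wash sperm, and blood markers 1.23% to 1.60% and 0.294% to 0.450%, while germ-cell markers were 1.64% to 4.49% and 4.78% to 8.11%. Of the 5 epithelial markers 2, 5 and 4 were called lower after the 3 washes, where 0 of 13 tested members of the X-linked list were. The part of these cells in the family's rising share was not tested.

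**Figure D3:**
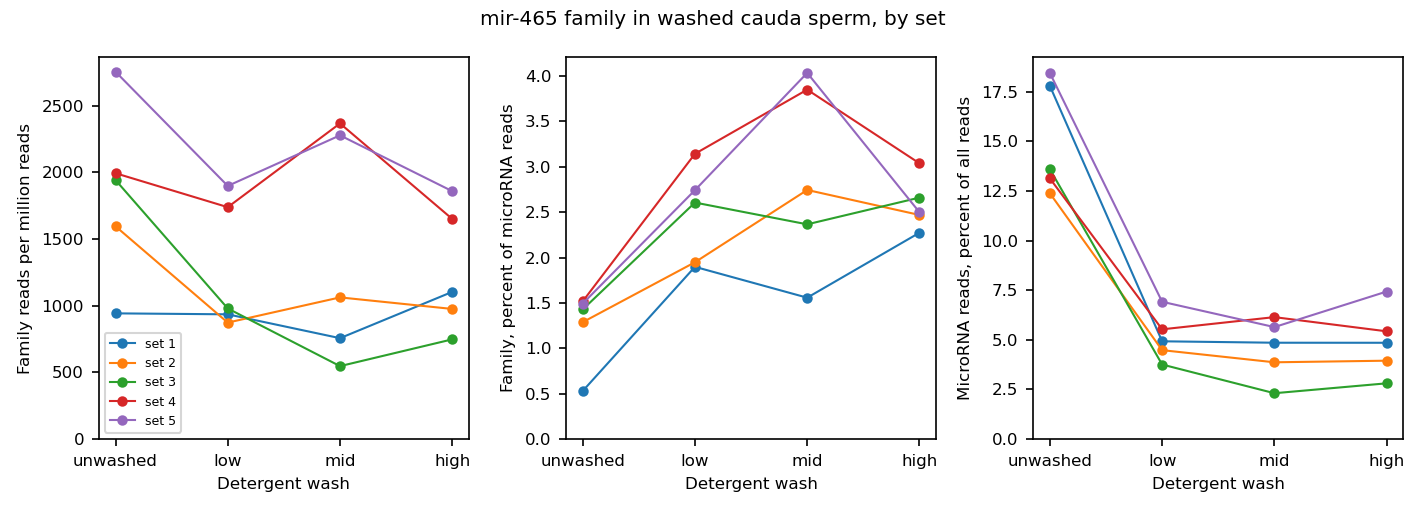
Summed mir-465 reads in CPM (left), their percent of microRNA reads (middle) and the percent of all reads that are microRNAs (right), across washes of increasing detergent, with lines joining the 4 libraries of a set. The share of microRNA reads is higher after each wash in all 5 sets.

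With kinase the family was lower in cauda sperm and higher in caput sperm. In cauda sperm the family went from 828.9, 1001 and 1498 CPM untreated to 80.9, 163 and 82.0 CPM with kinase (110, 216 and 111 reads). In caput sperm it went from 215, 141 and 85.1 CPM to 266, 848 and 641 CPM (64, 167 and 200 reads). Neither pair of groups overlapped. The untreated caput libraries held few reads per row, 43, 7 and 25 for Mir465c-1 and 17, 6 and 6 for Mir465b-1, which limits the precision of the caput values.

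In cauda sperm all 5 members were lower with kinase, by -2.43 (SE 0.31) for Mir465c-1 to -1.96 (SE 0.28) for Mir465b-2 (edgeR, adjusted p 4.67e-06 to 2.96e-05), where 32.8% of all rows were called lower. That fall was shared by other microRNAs: 165 of 178 tested microRNA rows were called lower with a median of -2.06, microRNAs went from 11.3% to 16.6% of reads to 1.58% to 3.39%, and on microRNA rows alone 0 members passed. The family's share of microRNA reads was 0.602% to 0.976% untreated and 0.428% to 0.513% with kinase.

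In caput sperm the 4 tested members were higher with kinase, by 3.09 (SE 0.51) for Mir465b-1, 2.88 (SE 0.50) for Mir465b-2, 2.38 (SE 0.43) for Mir465c-1 and 2.58 (SE 0.44) for Mir465c-2 (edgeR, adjusted p 2.51e-08 to 5.07e-07), where 30.6% of all rows were called higher. These rows passed the low-count filter through the kinase libraries, in which they were high, so the count of 4 is a description only. Without the filter 1 member was called. Of the 126 microRNA rows tested, 8 were called higher and 111 lower, with a median of -2.29. On microRNA rows alone the 4 were higher by 4.58 (SE 0.42) to 5.28 (SE 0.56), where 15.3% of rows were called higher. The family's share of microRNA reads was 0.0230% to 0.0617% untreated and 0.703% to 2.09% with kinase. Mir465 did not pass the filter, with 20, 2 and 6 reads untreated and 0, 2 and 2 reads with kinase. Its share of family reads was 9.09% to 13.6% untreated and 0% to 1.20% with kinase.

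Of the X-linked list, 3 passed the filter in caput sperm and 1 of them, Mir470, was higher with kinase (log2 2.77, SE 0.43, adjusted p 7.11e-09). Mir871 had -0.37 (SE 0.48) and Mir878 0.32 (SE 0.52), neither past the threshold. Germ-cell markers summed to 894 to 1976 CPM untreated and 208 to 420 CPM with kinase, and the 1 that passed the filter was lower. Epithelial markers were lower in 5 of 5.

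The difference between the kinase effects was tested by an interaction term over the 12 libraries, chosen after seeing the data. It was past the threshold for 4 of 5 members, at 5.20 (SE 0.59) for Mir465b-1, 4.81 (SE 0.59) for Mir465b-2, 4.81 (SE 0.55) for Mir465c-1 and 4.98 (SE 0.57) for Mir465c-2 on the log2 scale, caput minus cauda (edgeR, adjusted p 1.53e-06 to 4.09e-06). Of all 1489 rows tested, 1.75% had an interaction called in that direction. That of Mir465 was 1.19 (SE 0.98) with an adjusted p of 0.530. The count stayed at 4 when any 1 library was left out.

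With kinase, then, caput sperm held more mir-465 than cauda sperm. The 4 tested members were lower in cauda, by -1.52 (SE 0.38) for Mir465c-1 to -1.17 (SE 0.37) for Mir465b-2 (edgeR, adjusted p 0.00177 to 0.00988), where 28.4% of all rows were called lower. Without kinase-treated caput replicate 2, 1 member passed, and without the filter on low counts 0 did. Of the X-linked list 5 were tested, 2 were higher and 1 lower in cauda.

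**Figure D4:**
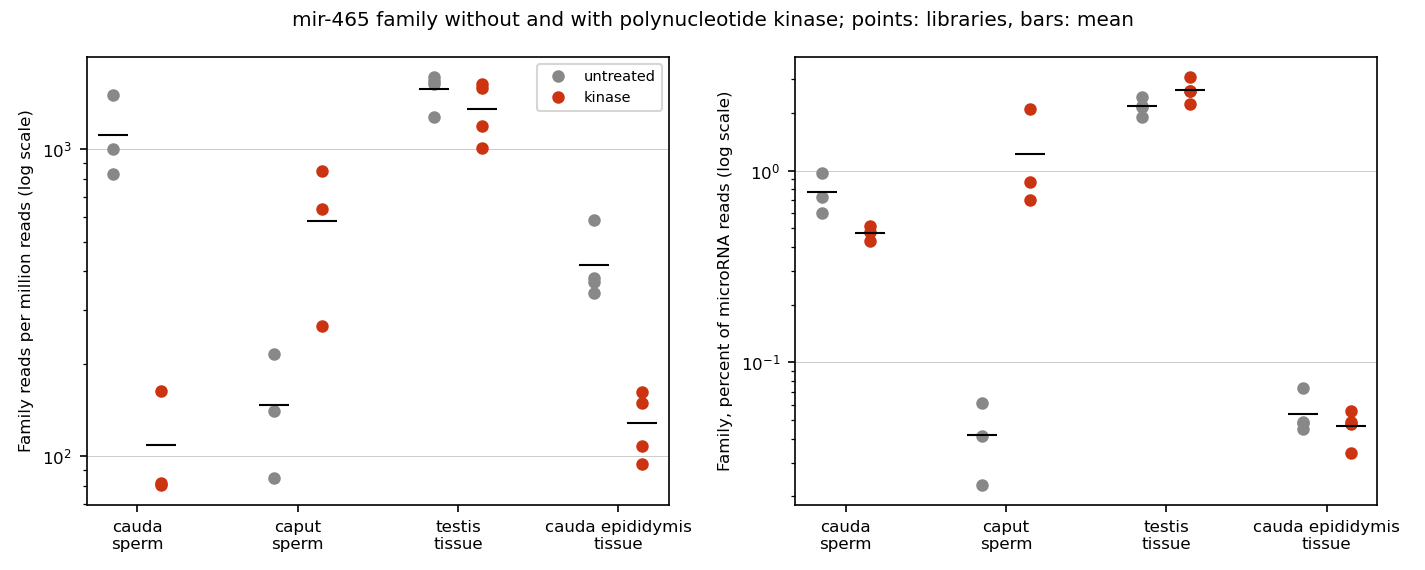
Summed mir-465 reads without and with polynucleotide kinase, in CPM (left) and as percent of microRNA reads (right), on log axes, with points for libraries and bars for means. In caput sperm the kinase libraries lie above the untreated ones on both scales, and in cauda sperm below them.

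In tissue, scaled over all rows, the kinase effect was smaller in testis than in cauda epididymis. Testis tissue had 1278 to 1715 CPM untreated and 1189, 1632, 1008 and 1579 CPM with kinase, and the groups overlapped. The last kinase library held only 360 family reads. Mir465 fell, at 109, 147, 117 and 160 CPM untreated and 57.4, 65.3, 45.3 and 74.5 CPM with kinase, by -1.09 (SE 0.15) on the log2 scale (edgeR, adjusted p 0.00286). It was the 1 of 5 members past the threshold, where 16.1% of all rows were called lower. Mir465b-1 and Mir465b-2 had -0.36 (SE 0.13) and -0.30 (SE 0.12), and Mir465c-1 and Mir465c-2 0.02 (SE 0.13) and 0.09 (SE 0.17). Without acid kinase replicate 2, 3 members passed, and without base kinase replicate 2, 2 did. Fitted on microRNA rows alone, 3 were called lower (25.2% of rows were): Mir465 by -1.03 (SE 0.12), Mir465b-1 by -0.33 (SE 0.11) and Mir465b-2 by -0.28 (SE 0.10), with adjusted p of 1.73e-05, 0.0204 and 0.0373.

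In cauda epididymis tissue the family went from 340 to 588 CPM down to 149, 108, 94.1 and 162 CPM with kinase, with no overlap. All 5 members were lower, by -3.18 (SE 0.25) for Mir465 and -2.08 (SE 0.32) to -1.92 (SE 0.31) for the others (edgeR, adjusted p 2.45e-12 to 3.98e-06), where 37.2% of all rows were called lower. MicroRNAs as a class fell there, with 277 of 334 tested rows called lower, and on microRNA rows alone Mir465 was the 1 member past the threshold, at -1.27 (SE 0.17, adjusted p 0.000196; 27.7% of rows were called lower). The family's share of microRNA reads overlapped, at 0.0449% to 0.0733% untreated and 0.0337% to 0.0558% with kinase. The kinase effect differed between the tissues in all 5 members, by 1.30 (SE 0.28) for Mir465b-1 to 1.78 (SE 0.30) for Mir465c-1, testis minus epididymis (interaction over 16 libraries and all rows, chosen after seeing the data, edgeR adjusted p 5.65e-05 to 0.00187), where 25.1% of all rows had one called in that direction. The interaction was not tested on microRNA rows alone.

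After the kinase labelled 3 minus the family was low in both tissues. Testis libraries had 60.6, 47.6, 32.6 and 71.6 CPM (111 to 216 reads) and cauda epididymis libraries 39.3, 24.2, 90.8 and 41.1 CPM (13 to 174 reads). All 5 members were lower in testis, by -4.33 (SE 0.39) for Mir465 to -3.53 (SE 0.21) for Mir465b-2, where 32.7% of all rows were called lower (edgeR, adjusted p 3.31e-06 to 3.06e-05). All 5 were lower in cauda epididymis, by -4.55 (SE 0.42) for Mir465c-1 to -3.65 (SE 0.46) for Mir465, where 47.3% were (adjusted p 9.47e-17 to 4.39e-09). The share of microRNA reads in testis was 0.173% to 0.243%, below every untreated library. In cauda epididymis, 252 of 283 tested microRNA rows were called lower with a median of -5.30. The direction turned there in the fit on microRNA rows alone, with members at 0.71 (SE 0.41) to 1.85 (SE 0.82) and 0 past the threshold. The family's share of microRNA reads did not turn. It was 0.0724% in base replicate 1 and 0.00546% to 0.00998% in the other libraries, against 0.0449% to 0.0733% untreated.

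With AlkB, Mir465 was lower in testis, and the other rows were closer to their untreated levels. The family had 1103, 1159, 1011 and 1338 CPM against 1278 to 1715 untreated, and Mir465 had 41.6, 49.2, 25.9 and 58.3 CPM, below all untreated libraries. Mir465 fell by 1.45 (SE 0.26) on the log2 scale (edgeR, adjusted p 0.0021), the 1 of 5 past the threshold, where 31.8% of all rows were called lower. The other 4 had -0.26 (SE 0.12) to -0.16 (SE 0.08). Without acid untreated replicate 1, 3 members passed. With the replicate number as a block, 3 were called lower (32.8% of rows were), Mir465, Mir465c-1 and Mir465c-2. In cauda epididymis the family had 98.8, 64.0, 97.9 and 106 CPM, and 3 of 5 members were lower, where 28.1% of all rows were: Mir465 by -1.79 (SE 0.30, adjusted p 2.18e-05), Mir465c-1 by -1.10 (SE 0.31, adjusted p 0.00446) and Mir465c-2 by -1.11 (SE 0.29, adjusted p 0.00232). Mir465b-1 and Mir465b-2 had -0.46 (SE 0.27) and -0.48 (SE 0.27). On microRNA rows alone, 4 members were called higher and 1 lower in testis (34.9% and 42.0% of rows were), and 2 higher and 1 lower in cauda epididymis (30.8% and 43.9%). That fit is scaled by TMM, and the family's plain share of microRNA reads was lower with AlkB in both tissues. In testis the share was 0.877% to 1.10%, against 1.90% to 2.43% untreated. In cauda epididymis it was 0.00732% to 0.0117%, against 0.0449% to 0.0733% untreated.

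With RppH in testis tissue, Mir465b-1 had 263, 305, 563 and 222 CPM and Mir465c-2 had 219, 238, 505 and 159 CPM, so the b row exceeded the c row in all 4 libraries, whereas in untreated testis c exceeded b in all 4. Mir465 had 21.4, 21, 37.1 and 16.9 CPM and was 1.73% to 2.08% of family reads, against 6.83% to 9.58% untreated. It fell by 2.60 (SE 0.39) on the log2 scale (edgeR, adjusted p 0.0377), the 1 of 5 past the threshold, where 0.664% of all rows were called lower. Leaving out 1 library changed that count to 0 for 7 of the 8 libraries, and to 3 without base RppH replicate 1, which had 1040 family reads. With the replicate number as a block, 0 members passed (0% of rows were called lower), and Mir465 had -2.64 (SE 0.44, adjusted p 0.0762). The family's share of microRNA reads was 0.345% to 1.34% with RppH, below every untreated library (1.90% to 2.43%).

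In cauda epididymis, RppH libraries had 36.7, 263, 99.2 and 63.0 CPM from 43 to 502 reads, below every untreated library (340 to 588 CPM). The family's share of microRNA reads was 0.00394% to 0.0349%, also below every untreated library (0.0449% to 0.0733%). Mir465 fell by 1.44 (SE 0.53, adjusted p 0.0341), the 1 of 5 past the threshold, where 28.4% of all rows were called lower. Mir465c-1 had -1.29 (SE 0.56) and Mir465b-1 -0.10 (SE 0.55). That call was lost without acid untreated replicate 1, acid RppH replicate 1 or base RppH replicate 2, and 2 members passed without acid untreated replicate 2.

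**Figure D5:**
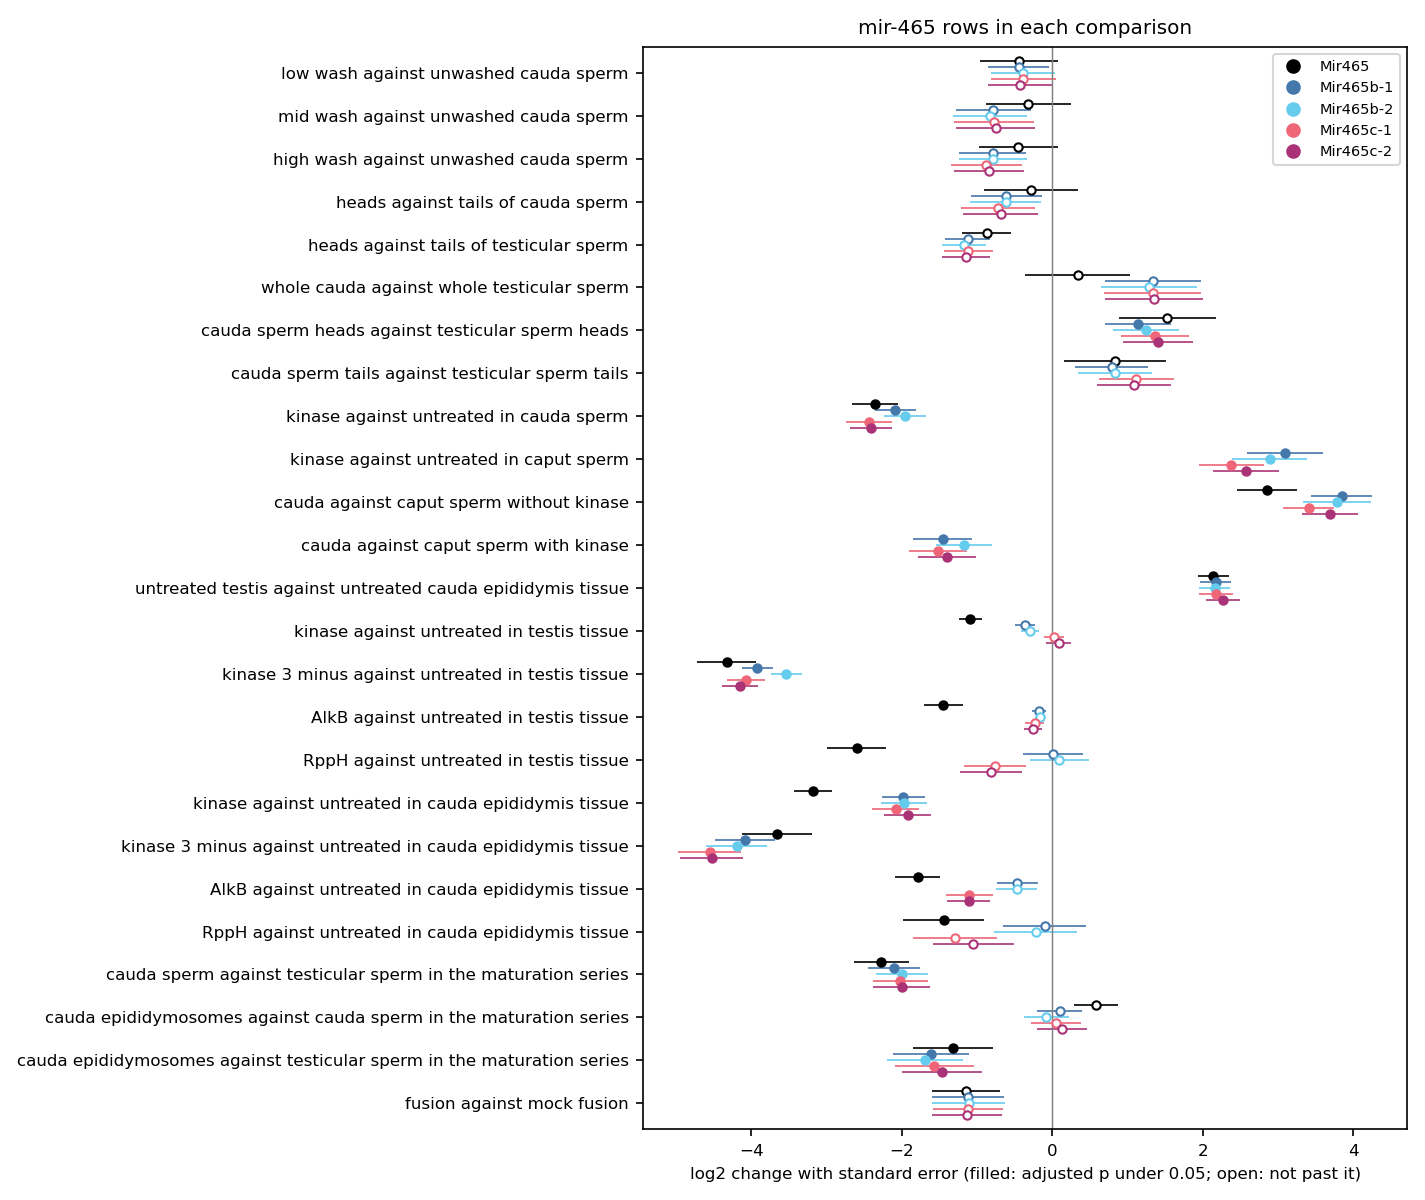
Log2 change with its standard error for each tested mir-465 row in each comparison. Filled points had an adjusted p under 0.05 in the edgeR test, and open points did not. The rows of a comparison mostly lie together. Mir465 lies apart from the other rows in several, such as AlkB and RppH in testis tissue (-1.45 and -2.60), kinase and AlkB in cauda epididymis tissue (-3.18 and -1.79) and whole cauda against testicular sperm (0.33).

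Incubation of testicular sperm with caput epididymosomes went with lower family levels. The mock libraries had 2479 and 4511 CPM, and the fusion libraries that share their title dates had 1308 and 2219 CPM, which are ratios of 0.528 and 0.492. Every fusion library lay below every mock library. The log2 changes ran from -1.14 (SE 0.45) for Mir465 to -1.11 (SE 0.48) for Mir465b-2, and 0 of 5 passed (edgeR, adjusted p 0.171 to 0.216; 0.0342% of all rows were called lower), with 5 at an unadjusted p under 0.05 and 0 by DESeq2. With the date as a block all 5 were lower, by -1.10 (SE 0.29) for Mir465 to -1.05 (SE 0.26) for Mir465c-1 (edgeR, adjusted p 0.000494 to 0.00254), where 3.99% of all rows were called lower. With 2 libraries per group and the date fitted, little is left to estimate the spread of a row. Those p-values therefore rest largely on the spread of other rows. The correlation between the deviations of same-dated libraries was 0.166.

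On microRNA rows alone with that block, added after seeing the data, all 5 were lower as well (18% of rows were called lower). The family's share of microRNA reads was 1.60% and 4.00% in mock and 0.940% and 1.37% in fusion libraries. Epithelial markers were 0.120% to 0.239% of microRNA reads in mock and 2.43% to 2.81% in fusion libraries, and blood markers 9.92% to 18.2% and 4.43% to 9.58%. Their part in the family's lower share was not tested.

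For mir-465 the labelling tables listed 3′ arms only. 4-TU is a uracil analogue that cells able to use it build into new RNA, where it is read as a T-to-C change. The labels do not give the genotype of these mice. All 5 listed mir-465 arms had identical values in all 12 tables, so they are 1 measurement, and each sample had 1 library and no test. In 4-TU testis the arm had 6121 reads, or 5425 CPM of the total given in the authors' deposited table (95% Clopper-Pearson interval 5291 to 5563). Caput epididymis had 236 reads (22.7 CPM, 19.9 to 25.8) and cauda sperm 1914 reads (2284 CPM, 2183 to 2389). In the control samples testis had 22162 reads (7640 CPM, 7540 to 7741), caput epididymis 279 (19.3 CPM, 17.1 to 21.7) and cauda sperm 914 (1707 CPM, 1598 to 1821). Testis was thus highest and caput lowest in both.

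T-to-C changes were averaged over the 5 U positions counted in the arm. In testis they were 0.0229% with 4-TU (7 changes, interval 0.00920% to 0.0471%) and 0.0199% in the control (22 changes, 0.0124% to 0.0301%). In cauda sperm they were 0.0627% with 4-TU (6 changes, 0.0230% to 0.136%) and 0.0875% in the control (4 changes, 0.0239% to 0.224%). The intervals of labelled and control samples overlapped in each tissue. Caput epididymis had 0 changes in either sample, which allows up to 0.254% with 4-TU and 0.215% in the control by the limit of 3 counts (Clopper-Pearson upper limits 0.312% and 0.264%), so a difference of the size seen in other arms was not detectable at this depth. The median over other arms with at least 200 reads was 0.132% in 4-TU caput (289 arms) and 0.0613% in control caput. Intervals and limits cover counting error only.

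Over the means of 46 groups of libraries, the microRNAs whose share of microRNA reads varied most like the family's were Mir34b (Pearson r 0.949), Mir743b (0.949), Mir883a (0.931), Mir192 (0.928) and Mir15b (0.925), of 313 ranked. These are correlations of log2 ppm (reads of each row against all microRNA reads, scaled as for CPM), given as a description, and the groups share depth, class composition and libraries of 1 origin. Mir34b is a germ-cell microRNA, and Mir743b and Mir883a lie in the same X-linked cluster. Of the 20 closest, 8 were on the X-linked list, 9 when CPM was used and 3 with Spearman's correlation. That list holds 16 microRNAs, not all of which were among the 313 ranked. Those least like it were Mir143 (-0.34), a microRNA of smooth muscle, Mir379 (-0.43) of the Dlk1-Dio3 region, and Mir10b (-0.54) of the Hox clusters.

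Mir34b stood at 8024 to 9366 ppm of microRNA reads in untreated testis and 56.7 to 244 in untreated caput sperm. Mir743b stood at 3720 to 4563 and 63.8 to 189. The abundant neighbours Mir470 (r 0.797) and Mir871 (r 0.882) followed the family less closely, and Mir881 (r 0.908) ranked 8. Least like the family among the ranked members of the X-linked list were Mir201 (r 0.498, rank 152) and Mir547 (r 0.492, rank 155).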

How the data were processed

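The authors deposited tables of reads per feature, as counts or, where values were not whole, estimated counts, which were rounded here to whole numbers. Reads were placed on mm10, per the submitters' processing notes. The aligner and its treatment of reads that match several loci are not given in the sources used here. The deposited labelling workbook gave counts per arm and the percent of reads with each substitution. Of its per-sample columns, 4 matched no sample and were not used.

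Library totals left out the 28S, 18S and 5.8S rows, and 27 rows whose gene names had turned into dates were dropped (at most 0.0255% of a library). Members were rows of the microRNA class named Mir465. The members, lists and tests were chosen with earlier results of these data known. The lists hold X-linked neighbours, of which the 4 most abundant in testis are named, and cell markers. The 5 microRNAs most like the family and the 3 least like it were named by correlation.

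Each of 25 comparisons used edgeR 4.0.16 (R 4.3.3; TMM, filterByExpr, robust quasi-likelihood test) on its own libraries, with Benjamini-Hochberg adjustment over all rows and a threshold of 0.05. Wash was a term between cauda heads and tails, and acid or base in tissue. Alternatives were RLE or no scaling, DESeq2 1.42.0, no low-count filter, microRNA rows alone, libraries left out and the replicate number as a block. Same-numbered libraries deviated together, with every correlation over 0.1, in the washes (0.182 to 0.645), in AlkB (0.316 and 0.411) and RppH (0.276 and 0.518) against untreated testis, and in other comparisons whose counts the block left as they were. In tissue each group has 2 libraries, so those values are not independent between numbers. Mock and fusion share title dates. These count as paired. No replicate pair agreed within sampling noise (lowest chi-square per degree of freedom 7.84 over 121 pairs). The mock libraries stand in both deposited tables and were counted 1 time, save that the 121 pairs hold their pair from both.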

Additional observations from a re-analysis of the deposited data

Results flagged for a closer look

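Of 54 sets of group and measure checked, 7 held a library far from the others of its group, and chance alone marks about 1 in 20 such groups. Unwashed cauda sperm of set 1 had 0.529% of microRNA reads in the family, against 1.29% to 1.52% in the other sets, whose titles read FVBCDIET where those of set 1 read FVBTA. Untreated cauda epididymis tissue, base replicate 2, had 588 CPM and 0.0733% of microRNA reads, against 340 to 380 CPM and 0.0449% to 0.0488%. The kinase 3 minus library of cauda epididymis, base replicate 1, had 0.0724%, against 0.00546% to 0.00998%. AlkB-treated cauda epididymis, acid replicate 2, had 0.00732%, against 0.0115% to 0.0117%.

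Mir465 made up 13.3% of family reads in testicular sperm replicate 3 of the maturation series, against 11.3% to 11.5%. It made up 16% in cauda sperm replicate 1, against 8.77% to 10.5%. That library carries another title date than the other 6.

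The kinase effect differed between caput and cauda sperm in an interaction term, by 5.20 for Mir465b-1, 4.81 for Mir465b-2, 4.81 for Mir465c-1 and 4.98 for Mir465c-2 on the log2 scale. Of all rows tested, 1.75% had an interaction called in that direction. The kinase effect differed between testis and cauda epididymis tissue by 1.77 for Mir465, 1.30 for Mir465b-1, 1.36 for Mir465b-2, 1.78 for Mir465c-1 and 1.69 for Mir465c-2. In tissue, 25.1% of all rows had an interaction called in that direction, and the median over all rows was 0.52. On microRNA rows alone, kinase changes ran from -1.03 (SE 0.12) for Mir465 to 0.11 (SE 0.11) for Mir465c-2 in testis. In cauda epididymis they ran from -1.27 (SE 0.17) to 0.0064 (SE 0.15) for the same rows. Their difference was not tested there. Both interactions were chosen after seeing the data.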

How the results depend on the processing

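Of 371 counts of members past the threshold recomputed under an alternative, 294 stayed within 1.5 times the main count. Of 915 values of called members, 827 kept direction and call, 81 kept direction only and 7 reversed. The cause of the changes below was not tested.

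With the replicate number as a block, the counts became 5, 4 and 3 for the low, mid and high wash and 5 for fusion. They became 3 for AlkB and 0 for RppH in testis. Where the correlations did not reach 0.1 in every pair, and the titles share a letter or number whose meaning is not stated, they became 5 lower for testicular heads against tails (-0.95, SE 0.23, to -0.80, SE 0.25, adjusted p 0.00103 to 0.0193 by edgeR; correlations 0.613 and -0.0973), 3 for kinase in testis and 0 for RppH in epididymis. The block changed no other count.

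On microRNA rows alone, counts became 4 (mid wash), 3 (high wash), 0 (heads, cauda against testis), 0 (kinase, cauda sperm), 3 (kinase, testis), 5 with 4 of them higher (AlkB, testis), 1 (kinase, epididymis), 0 (kinase 3 minus, epididymis), 3 with 2 of them higher (AlkB, epididymis), 0 (RppH, epididymis), 0 (cauda against testicular sperm) and 5 (epididymosomes against cauda sperm). Reversed values were 0.0779 for Mir465b-2 (kinase, cauda sperm), 0.00645 for Mir465c-2 (kinase, epididymis), and 1.85, 1.36, 1.16, 0.71 and 0.94 for Mir465, b-1, b-2, c-1 and c-2 (kinase 3 minus, epididymis). With the replicate block added to that fit, the counts were 3, 5 and 3 for the washes and 5 for fusion.

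With library totals alone the counts were 4 (cauda heads against tails), 0 (heads, cauda against testis), 2 (tails), 5 (AlkB, either tissue), 3 (RppH, epididymis) and 2 (epididymosomes against cauda sperm). Without the low-count filter they were 5 (testicular heads against tails), 1 (whole sperm), 2 (heads), 1 (tails), 1 (kinase, caput sperm), 0 (cauda against caput with kinase), 0 (RppH, testis) and 3 (RppH, epididymis). DESeq2 gave 4 (whole sperm), 3 (kinase, testis), 2 (AlkB, testis), 3 (RppH, testis) and 3 (RppH, epididymis), and RLE scaling 2 (AlkB, testis) and 3 (RppH, epididymis). Detergent-washed cauda libraries alone gave 0 (heads) and 4 (tails).

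Leaving out each library gave ranges of 0 to 4 (testicular heads against tails), 0 to 3 (whole sperm), 0 to 5 (heads), 0 to 4 (tails), 1 to 4 (cauda against caput with kinase), 1 to 3 (kinase, testis), 1 to 3 (AlkB, testis), 0 to 3 (RppH, testis), 0 to 2 (RppH, epididymis) and 1 to 5 (epididymosomes against testicular sperm). It moved no other count. Of the 5 microRNAs most like the family, 3 stayed with CPM and 1 with Spearman's correlation. With the ribosomal rows in the total, 27 of 33 group levels moved by less than 1 SD, at ratios of 0.66 to 0.999. Groups of 1 library have no SD and could not be among the 27. Depth limits several libraries, where the family had as few as 13 reads (kinase 3 minus, epididymis) and 22 (untreated caput sperm, also the shallowest library at 156347 reads).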
